A study of Caenorhabditis elegans with 12 samples.

Results

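The 4 wild type samples of this RNA-seq experiment on whole Caenorhabditis elegans larvae lay as a pair of pairs. Replicates 1 and 3 were nearer to each other than to replicates 2 and 4, and replicates 2 and 4 were nearer to each other than to replicates 1 and 3. The pairing was found in the distances between these samples' transcriptomes and not in any label, so every value that sets 1 pair against the other is given as a description, without a test. These 4 samples are the whole wild type group, of 12 samples in the series.

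The strain was N2, grown like all other groups on HT115 bacteria that carry the empty vector L4440. It was collected at mid-L4, the last larval stage, from independent timed egg lays. The other groups were 4 rescue samples, in which an extrachromosomal array drove raga-1 from the neuronal promoter of rab-3 (with mCherry) in a raga-1(ok386) background, and 4 mutant samples, which carried the ok386 deletion of raga-1 alone. The study describes the array as also active in the intestine. raga-1 encodes a RagA GTPase that activates the growth regulator TORC1. Rescue larvae were picked one by one under a fluorescence microscope, and the mutant and wild type larvae were washed off plates, so handling and transgene cannot be told apart. Counted from the first harvest as day 1, wild type replicates 1 and 3 date from days 2 and 6, and replicates 2 and 4 from days 4 and 8. Rescue and mutant replicates 1 to 4 date from days 1, 2, 4 and 6.

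A larva that leaves a stage replaces its cuticle. In textbook accounts, genes of the molting cycle rise and fall once in each stage: regulators come early, then collagens and other matrix proteins of the new cuticle, and then the proteases that release the old one. During L4 the hermaphrodite germline makes sperm and then turns to oocytes, and the intestine begins to make yolk for them towards adulthood. Stage within L4 was not recorded for single samples, so its part in the values below was not tested.

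Total expected counts were between 14287510 and 35619305 per sample. Wild type replicate 1 was the shallowest sample with 14287510, and the other wild type samples had 22590640 to 26701924. Levels are given as CPM (read counts relative to library size) after TMM scaling, and 3 counts amounted to 0.217 CPM in replicate 1. raga-1 had 805 to 891 CPM in rescue, 1.42 to 1.76 CPM in mutant and 61.8 to 70.2 CPM in wild type, where the pairs did not stand apart on it. The summed level of 12 genes switched on in early embryos was 0.583 to 1.02 CPM in the wild type samples, so these transcripts were near absent. Later embryos were not assessed by this list. Sarcomere genes, a sign of tissue balance, and the mitochondrial genome, a sign of RNA handling, had no member that stood apart. Of 13 intestinal genes 2 were higher in replicates 1 and 3, as were 22 of 47 histone genes (46.8%), whose levels in poly(A) libraries also bear on RNA handling.

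Distances were Euclidean on log2 CPM over 15728 genes that passed a filter on low counts, of 21882 listed. Replicates 1 and 3 were 59.7 apart and replicates 2 and 4 were 48.6 apart. Between the pairs the 4 distances were 69.7 to 118. The nearest samples across the pairs were replicates 3 and 4, and the farthest were replicates 1 and 2. Within the rescue group the 6 distances were 40.4 to 46.3, and within the mutant group 39.3 to 55.0, so replicates 1 and 3 were farther apart than any 2 samples within either group, and replicates 2 and 4 were farther apart than any 2 rescue samples but within the range of mutant. Replicates 2 and 4 lay 71.1 to 88.7 from the mutant samples and 86.1 to 108 from the rescue samples. Replicates 1 and 3 lay 75.7 to 105 from mutant and 83.2 to 95.1 from rescue.

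**Figure D1:**
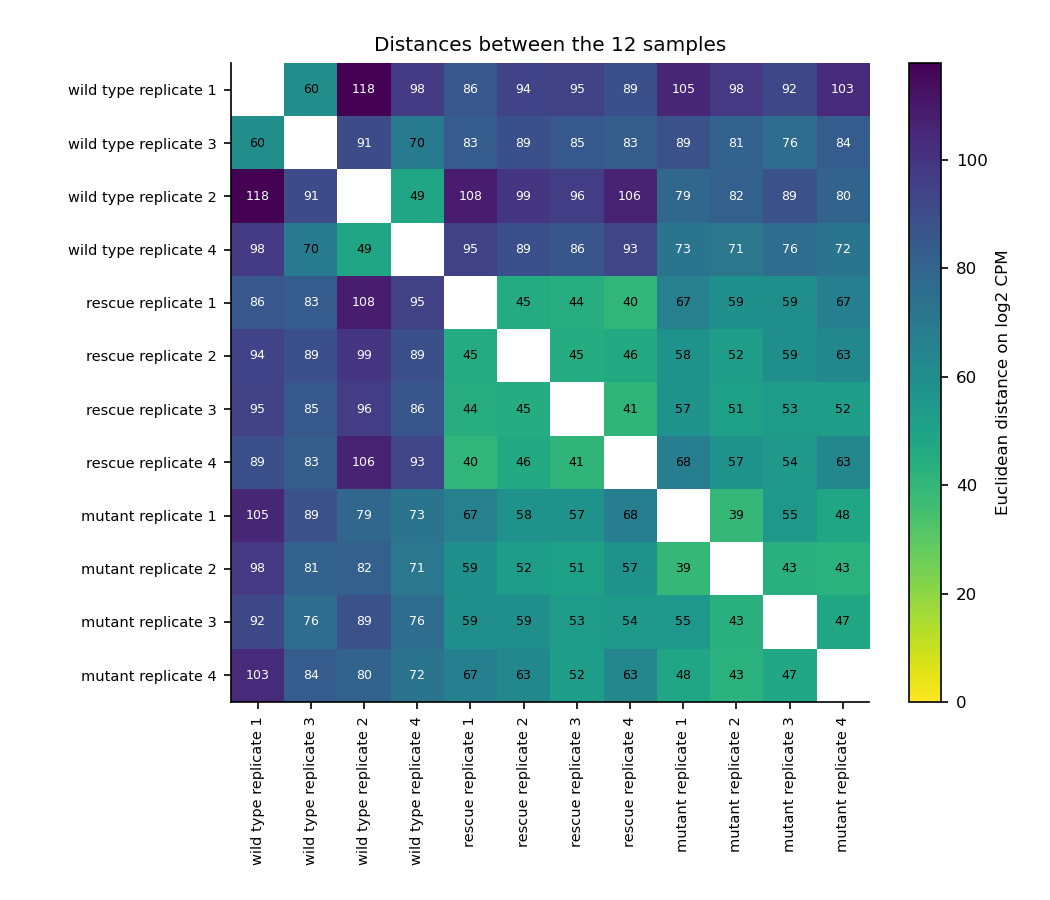
Euclidean distance on log2 CPM between each 2 of the 12 samples, with wild type replicates 1 and 3 first, then 2 and 4, rescue and mutant. Replicates 1 and 2 are 118 apart, and every distance within rescue (40.4 to 46.3) is below every distance between the wild type pairs (69.7 to 118).

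A gene was said to stand apart where both samples of 1 pair lay above both of the other and the mean difference on log2 CPM was at least 1.5-fold. On this measure 1732 genes (11.0% of 15728) were higher in replicates 1 and 3, and 1407 genes (8.95%) were higher in replicates 2 and 4. At 2-fold or more these were 912 genes (5.80%) and 671 genes (4.27%). With no minimum fold, 9955 genes (63.3%) had pairs that did not overlap. At the edge of the limit were dpy-27, just inside with 47.3 and 37.8 CPM in replicates 1 and 3, against 26.1 and 30.4 CPM in replicates 2 and 4, and W03D8.10, just outside with 23.1 and 18.2 CPM in replicates 1 and 3, against 12.3 and 15.2 CPM in replicates 2 and 4. On the other side K03E5.2 was just inside, with 34.4 and 36.7 CPM in replicates 1 and 3, against 59.4 and 47.9 CPM in replicates 2 and 4, and apx-1 was just outside with 20.9 and 28.1 CPM in replicates 1 and 3, against 36.6 and 36.1 CPM in replicates 2 and 4.

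Molt effectors were among the genes higher in replicates 1 and 3. Of 21 molt effectors, 13 were higher in replicates 1 and 3 and 2 were higher in replicates 2 and 4, with a median log2 difference of 1.84, where the median of all genes was 0.00 (−0.0019). mlt-11, which encodes a protease inhibitor with Kunitz domains needed for molting, had 354 and 83.3 CPM in replicates 1 and 3, against 6.91 and 15 CPM in replicates 2 and 4, a log2 difference of 4.07. noah-2, a zona pellucida (ZP) domain protein of the embryonic and larval surface matrix, had 193 and 46.7 CPM in replicates 1 and 3, against 4.05 and 8.12 CPM in replicates 2 and 4. Its relative noah-1 had 205 and 47.4 CPM in replicates 1 and 3, against 5.61 and 8.55 CPM in replicates 2 and 4. In all 3 of these genes replicate 1 was the highest, replicate 3 came next, and replicate 2 was the lowest.

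mlt-10, a reporter gene of the molting cycle, had 486 and 291 CPM in replicates 1 and 3, against 27.2 and 62.2 CPM in replicates 2 and 4. fbn-1, a fibrillin-like matrix protein, had 26.7 and 4.81 CPM in replicates 1 and 3, against 1.78 and 1.71 CPM in replicates 2 and 4, so replicate 1 alone was far above the rest. nas-37, the astacin protease that opens the old cuticle, had 95.6 and 35.5 CPM in replicates 1 and 3, against 11.5 and 13.2 CPM in replicates 2 and 4. The molt effectors were not uniform. mlt-7, a peroxidase that cross-links cuticle proteins, had 98.5 and 109 CPM in replicates 1 and 3, against 272 and 207 CPM in replicates 2 and 4, and the tetraspanin gene tsp-15 also lay the other way, with 7.54 and 7.94 CPM in replicates 1 and 3, against 16.17 and 13.02 CPM in replicates 2 and 4. These last 2 were named after their values were seen. The astacin family as a whole was divided: 7 of 31 members were higher in replicates 1 and 3 and 9 in replicates 2 and 4. nas-15 had 87.7 and 63.3 CPM in replicates 1 and 3, against 9.89 and 22.7 CPM in replicates 2 and 4.

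Of 9 transcription factors of the molting cycle, 7 were higher in replicates 1 and 3 and none in replicates 2 and 4 (median log2 difference 0.96). bed-3, a zinc finger factor required for molting, had 71.3 and 57.5 CPM in replicates 1 and 3, against 8.47 and 19.1 CPM in replicates 2 and 4. lin-42, the homolog of Period that paces the molts, had 222 and 171 CPM in replicates 1 and 3, against 40.9 and 61.9 CPM in replicates 2 and 4. myrf-1, a membrane-bound factor needed for larval progress, had 122 and 70.2 CPM in replicates 1 and 3, against 22.5 and 26.8 CPM in replicates 2 and 4. For these 3 regulators the pairs were well separated and the log2 difference within a pair was smaller than that between pairs. nhr-23, the nuclear receptor at the head of the molting cycle, was level: 58.4 and 56.5 CPM in replicates 1 and 3, against 55.4 and 54.1 CPM in replicates 2 and 4. nhr-85 was the other factor that did not stand apart, named after its values were seen, with 10.6 and 10.7 CPM in replicates 1 and 3, against 11.5 and 9.91 CPM in replicates 2 and 4.

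Among 9 heterochronic genes, which time larval fates, 3 were higher in replicates 1 and 3 and 2 in replicates 2 and 4. mab-10, a cofactor of LIN-29 in the switch to adult epidermis, had 48.4 and 24.7 CPM in replicates 1 and 3, against 14.3 and 15.7 CPM in replicates 2 and 4. lin-29, the factor that drives this switch, did not reach the 1.5-fold limit, with 26.2 and 20.2 CPM in replicates 1 and 3, against 17.2 and 17.2 CPM in replicates 2 and 4. lin-41, which also acts in oocytes, was higher in replicates 2 and 4, with 83.6 and 135 CPM in replicates 1 and 3, against 182 and 161 CPM in replicates 2 and 4.

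**Figure D2:**
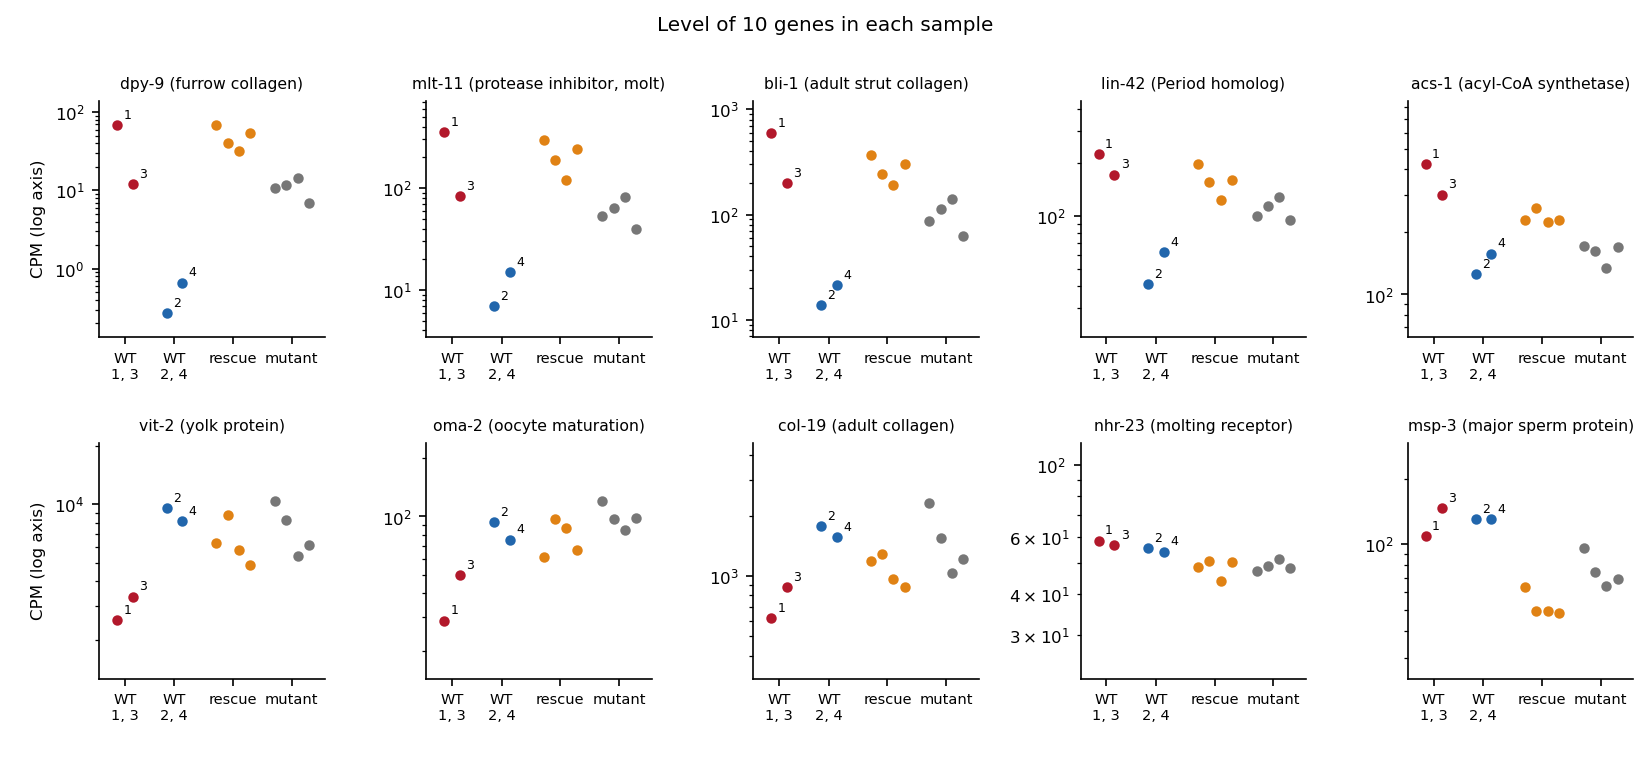
Level (CPM, log axis, each panel with its own range) of 10 genes in each of the 12 samples, 1 point per sample, wild type replicates numbered. For dpy-9, mlt-11, bli-1, lin-42 and acs-1 replicates 1 and 3 lie above 2 and 4, and for vit-2, oma-2 and col-19 they lie below. For nhr-23 replicates 1 and 3 lie slightly above 2 and 4, short of the 1.5-fold limit, and for msp-3 the pairs overlap.

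Cuticle collagens formed blocks of opposite direction. Of 144 collagen genes with enough counts, 58 were higher in replicates 1 and 3 and 37 were higher in replicates 2 and 4, so that 40.3% and 25.7% stood apart in a family whose median log2 difference was 0.26. The 6 furrow collagens, which form the ring-shaped furrows of the cuticle and are made before the other collagens of a stage, made up the most extreme block (6 of 6 higher in replicates 1 and 3, median log2 difference 5.01). Their summed level was 463 and 83.9 CPM in replicates 1 and 3, against 3.74 and 12.4 CPM in replicates 2 and 4. dpy-9, on chromosome IV at 257403 to 259204 of build WBcel235 on the minus strand, had 68.6 and 12.1 CPM in replicates 1 and 3, against 0.267 and 0.661 CPM in replicates 2 and 4. dpy-7, on the X chromosome, had 70.8 and 14.1 CPM in replicates 1 and 3, against 0.178 and 1.63 CPM in replicates 2 and 4. dpy-3 had 58.7 and 12.1 CPM in replicates 1 and 3, against 0.134 and 1.01 CPM in replicates 2 and 4, and its level in replicate 2 rests on 3 counts. The order was the same in all 6 genes: replicate 1, then 3, then 4, then 2.

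The collagens of the adult cuticle, which is laid down during late L4, were themselves split. Of 8 on the list, 5 were higher in replicates 1 and 3 and 3 were higher in replicates 2 and 4. bli-1, a collagen of the struts of the adult cuticle, had 595 and 199 CPM in replicates 1 and 3, against 13.7 and 21.5 CPM in replicates 2 and 4. bli-2, which forms the same struts, had 710 and 319 CPM in replicates 1 and 3, against 23.4 and 52.2 CPM in replicates 2 and 4. col-63 had 2465 and 2118 CPM in replicates 1 and 3, against 307 and 704 CPM in replicates 2 and 4. Going the other way, col-19, the usual reporter of the adult epidermis, had 617 and 878 CPM in replicates 1 and 3, against 1767 and 1562 CPM in replicates 2 and 4. col-62 and col-7, named after their values were seen, lay with col-19: col-62 had 187 and 281 CPM in replicates 1 and 3, against 802 and 633 CPM in replicates 2 and 4, and col-7 had 192 and 268 CPM in replicates 1 and 3, against 742 and 559 CPM in replicates 2 and 4. rol-6, a collagen gene of body shape, lay with the first block, at 395 and 248 CPM in replicates 1 and 3, against 29.5 and 68.2 CPM in replicates 2 and 4. Collagen genes with similar sequences can share reads, so the split of reads within such groups is uncertain.

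Other matrix families leaned to replicates 1 and 3. Of 34 cuticlin and ZP domain genes, 20 were higher in replicates 1 and 3 and 2 in replicates 2 and 4 (median log2 difference 0.83). Lists can share members, so they are not separate counts: noah-1 and noah-2 are also among the molt effectors above. Likewise lin-42 counts both among the molting cycle factors and among the heterochronic genes. Of 68 hedgehog-related and patched-related genes, many of which act at the surface of the worm, 34 were higher in replicates 1 and 3 and 10 in replicates 2 and 4. wrt-2, a hedgehog-related gene, had 53.0 and 10.0 CPM in replicates 1 and 3, against 0.535 and 1.87 CPM in replicates 2 and 4. wrt-1 had 106 and 29.2 CPM in replicates 1 and 3, against 2.54 and 5.56 CPM in replicates 2 and 4. Among the 10 genes with the largest differences this way were also lpr-3, lpr-4 and lpr-5, lipocalin-related genes on the X chromosome of which lpr-3 is known from the surface matrix. lpr-3 had 119 and 21.5 CPM in replicates 1 and 3, against 0.356 and 2.84 CPM in replicates 2 and 4. T17H7.1, R07E3.6 and M03B6.3, to which no role is given here, had log2 differences of 4.89, 4.82 and 4.65 and the same order of samples.

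The abu and pqn genes, many of which act in the cuticle of the pharynx, were divided like the collagens, with 11 of 68 higher in replicates 1 and 3 and 15 higher in replicates 2 and 4. pqn-32 had 358 and 236 CPM in replicates 1 and 3, against 21.1 and 53.7 CPM in replicates 2 and 4. Epidermal antimicrobial peptides were divided too, with 3 of 14 higher in replicates 1 and 3 and 4 of 14 higher in replicates 2 and 4. cnc-3 had 22.5 and 9.86 CPM in replicates 1 and 3, against 0.802 and 1.83 CPM in replicates 2 and 4, whereas nlp-28 had 4.42 and 6.03 CPM in replicates 1 and 3, against 18.9 and 14.5 CPM in replicates 2 and 4.

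The genes higher in replicates 2 and 4 included those of yolk and oocytes. All 6 vitellogenins, the yolk proteins made in the intestine, were higher in replicates 2 and 4 (median log2 difference −1.54), and their summed level was 8694 and 10010 CPM in replicates 1 and 3, against 28460 and 26880 CPM in replicates 2 and 4. vit-2 had 2518 and 3331 CPM in replicates 1 and 3, against 9507 and 8187 CPM in replicates 2 and 4. vit-6 had 3033 and 3835 CPM in replicates 1 and 3, against 10900 and 9908 CPM in replicates 2 and 4. vit-5 had 891 and 910 CPM in replicates 1 and 3, against 3387 and 3276 CPM in replicates 2 and 4. The distance between pairs was several times the distance within a pair for each of these, unlike the furrow collagens, where replicates 1 and 3 also differed widely. Vitellogenin genes with near-identical sequences can share reads, and the summed level does not depend on how such reads were split.

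Of 31 oocyte and eggshell genes, 26 were higher in replicates 2 and 4 and none in replicates 1 and 3 (median log2 difference −0.88). oma-2, needed for oocyte maturation, had 28.9 and 49.6 CPM in replicates 1 and 3, against 93.4 and 75.9 CPM in replicates 2 and 4. puf-5, an RNA-binding protein of growing oocytes, had 56.7 and 97.7 CPM in replicates 1 and 3, against 187 and 163 CPM in replicates 2 and 4. perm-2, of the permeability barrier of the eggshell, had 63.2 and 107 CPM in replicates 1 and 3, against 197 and 185 CPM in replicates 2 and 4. rme-2, the yolk receptor of oocytes, had 87.7 and 139 CPM in replicates 1 and 3, against 223 and 197 CPM in replicates 2 and 4. The order was replicate 2, then 4, then 3, then 1 in 25 of these 26 genes.

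Sperm genes did not follow. Of 35 major sperm protein genes, 2 were higher in replicates 1 and 3 and none in replicates 2 and 4, with a median log2 difference of −0.06, and their summed level was 5090 and 7582 CPM in replicates 1 and 3, against 6704 and 6621 CPM in replicates 2 and 4. msp-3 had 109 and 147 CPM in replicates 1 and 3, against 130 and 131 CPM in replicates 2 and 4, so the pairs overlapped. gsp-3, a phosphatase of sperm, had 113 and 125 CPM in replicates 1 and 3, against 109 and 122.9 CPM in replicates 2 and 4. Among 38 other sperm genes 3 were higher in replicates 1 and 3 and 1 in replicates 2 and 4. spe-44, a transcription factor that acts early in sperm development, was among the first, with 32.5 and 22.7 CPM in replicates 1 and 3, against 16.8 and 17.1 CPM in replicates 2 and 4. The major sperm protein genes are near copies of each other, and reads may be split between them.

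Lists of germline genes beyond gametes differed among themselves. None of 29 meiosis genes stood apart. Of 24 P granule and small RNA genes 2 were higher in replicates 2 and 4 (8.33%, near the 8.95% of all genes). Among these was meg-1, with 4.49 and 9.59 CPM in replicates 1 and 3, against 19.7 and 17.2 CPM in replicates 2 and 4. Of 30 cell cycle genes, 1 was higher in replicates 1 and 3 (median log2 difference −0.27). In replicates 2 and 4, 3 were higher (10%, near the 8.95% of all genes). These 3 were mitotic cyclins, with cyb-2.1 at 23.99 and 35.3 CPM in replicates 1 and 3, against 61.7 and 49.1 CPM in replicates 2 and 4. The nspa to nspe peptide genes, small families of unknown function, had 17 of 47 members higher in replicates 2 and 4 and none in replicates 1 and 3, and all 12 nspb genes were among these. nspb-6 had 6.60 and 8.30 CPM in replicates 1 and 3, against 29 and 24.4 CPM in replicates 2 and 4. In bulk samples a smaller germline and less RNA per germ cell cannot be told apart.

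Metabolic lists differed in part. Of 16 fatty acid desaturases and elongases, 8 were higher in replicates 1 and 3 and none in replicates 2 and 4 (median log2 difference 0.56). fat-5, a desaturase of palmitate, had 18.6 and 16.47 CPM in replicates 1 and 3, against 4.68 and 6.22 CPM in replicates 2 and 4. elo-4, an elongase, had 39.7 and 24.2 CPM in replicates 1 and 3, against 9.62 and 12.3 CPM in replicates 2 and 4, and elo-2, which elongates palmitate, had 262 and 149 CPM in replicates 1 and 3, against 72.7 and 89.8 CPM in replicates 2 and 4. Of 62 genes of fatty acid oxidation and activation, 14 (22.6%) were higher in replicates 1 and 3 and 2 (3.23%) in replicates 2 and 4. The shares of all genes were 11.0% and 8.95%. The other 46 did not stand apart, and the median log2 difference of the list was 0.09. acs-1, an acyl-CoA synthetase that acts on branched-chain fatty acids, had 425 and 302 CPM in replicates 1 and 3, against 125 and 157 CPM in replicates 2 and 4. acox-1.2, a peroxisomal acyl-CoA oxidase, had 93.4 and 37.5 CPM in replicates 1 and 3, against 6.82 and 20.9 CPM in replicates 2 and 4.

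The 17 genes of the methionine cycle and of phosphocholine synthesis had 2 members each way. This was 11.8% each way, near the 11.0% and 8.95% of all genes. sams-1, which makes S-adenosylmethionine, had 452 and 230 CPM in replicates 1 and 3, against 99.1 and 137 CPM in replicates 2 and 4. ckb-2, a choline kinase, went the other way with 41.9 and 88.4 CPM in replicates 1 and 3, against 171 and 140 CPM in replicates 2 and 4. Central energy metabolism did not set the pairs apart: none of 19 glycolysis genes, 27 nuclear genes of the respiratory chain, 12 genes of the mitochondrial genome or 9 genes of propionate breakdown stood apart.

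Growth and stress lists were close to level. Of 81 cytosolic ribosomal protein genes 1 stood apart, and of 66 mitochondrial ribosomal genes and 33 proteasome subunits none did. One of 10 cytosolic heat shock genes was higher in replicates 2 and 4, namely hsp-70, with 2.102 and 3.60 CPM in replicates 1 and 3, against 6.06 and 12.5 CPM in replicates 2 and 4, and 1 of 13 genes of the unfolded protein response was higher in replicates 1 and 3. For the lists that follow, the shares of all genes were 11.0% higher in replicates 1 and 3 and 8.95% higher in replicates 2 and 4. Of 57 cytochrome P450 genes, 9 (15.8%) were higher in replicates 1 and 3 and 8 (14%) in replicates 2 and 4. Of 60 UDP-glucuronosyltransferases 7 (11.7%) were higher in replicates 1 and 3 and 10 (16.7%) in replicates 2 and 4. ugt-63 had 3.70 and 4.19 CPM in replicates 1 and 3, against 17.7 and 16.9 CPM in replicates 2 and 4. Of 130 C-type lectins, secreted proteins often studied in immunity, 27 (20.8%) were higher in replicates 1 and 3 and 15 (11.5%) in replicates 2 and 4. clec-180 had 110 and 38.2 CPM in replicates 1 and 3, against 5.44 and 9.48 CPM in replicates 2 and 4.

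Histone genes, most of whose transcripts lack a poly(A) tail, had 22 of 47 members higher in replicates 1 and 3 and none in replicates 2 and 4 (median log2 difference 0.45). his-3 had 11.23 and 8.53 CPM in replicates 1 and 3, against 1.65 and 1.98 CPM in replicates 2 and 4. The libraries were made from poly(A) RNA, so these levels depend on how completely it was selected, and the part of this in the difference was not tested. Many histone genes are near copies, and their reads may be split between them.

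**Figure D3:**
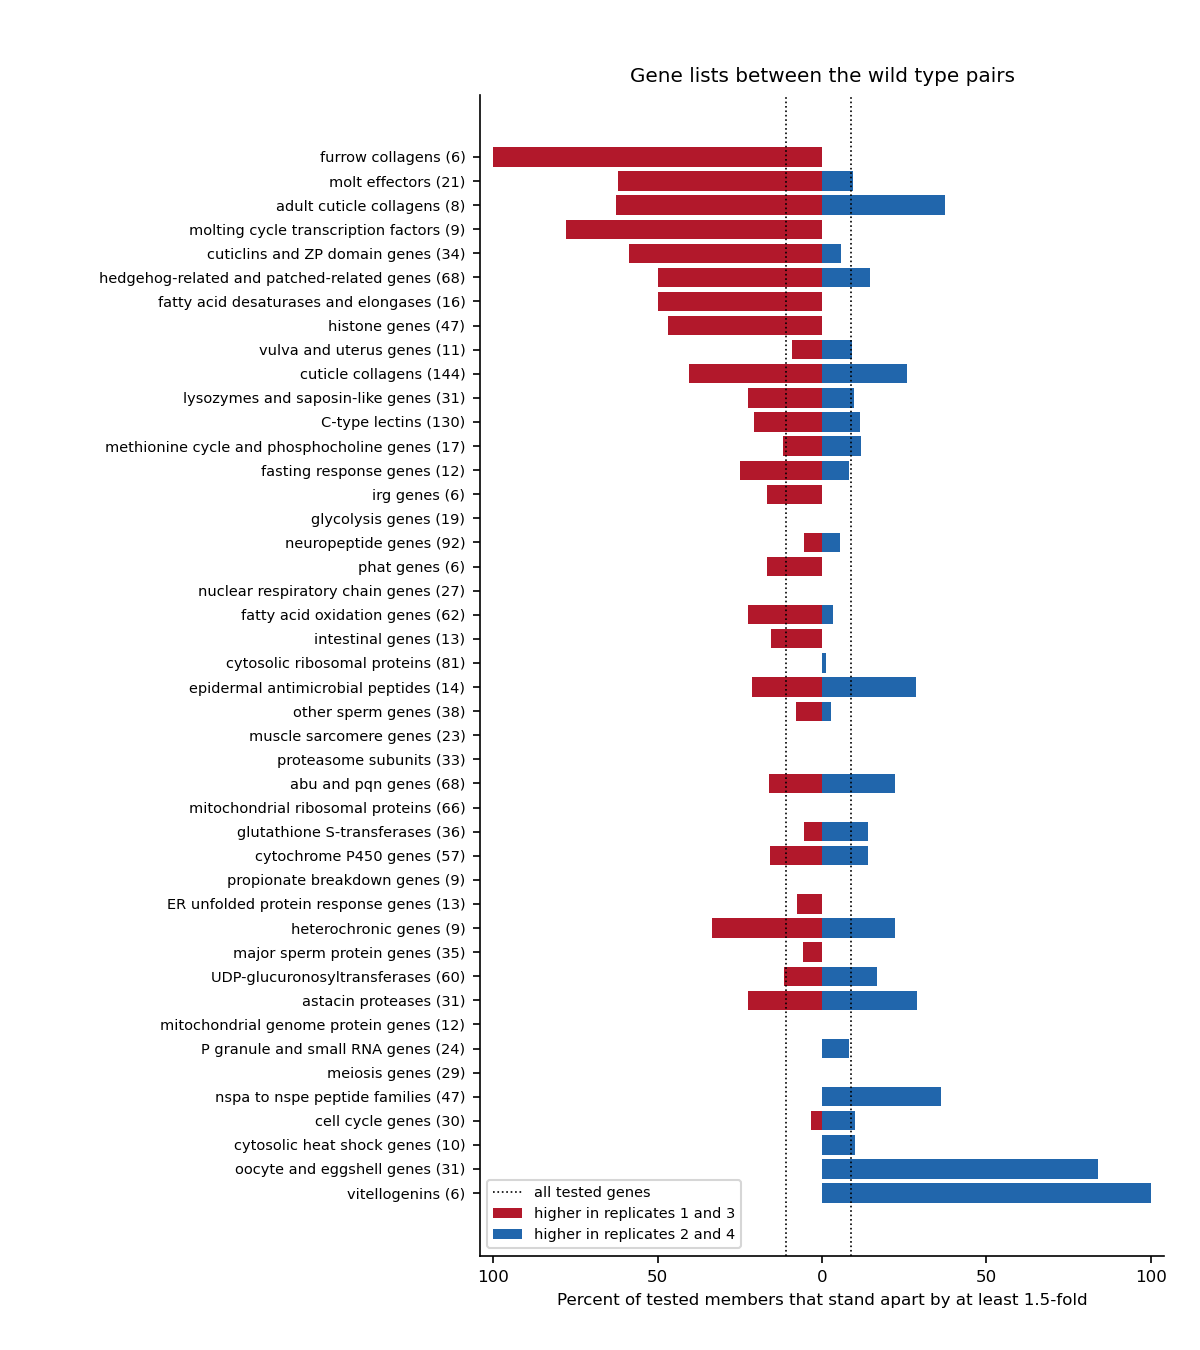
Percent of the tested members of each of 44 lists (number tested in brackets) that stood apart by at least 1.5-fold, higher in wild type replicates 1 and 3 to the left in red and higher in replicates 2 and 4 to the right in blue, in the order of the median log2 difference. The dotted lines mark 11.0% and 8.95%, the shares of all genes, and furrow collagens (6 of 6) and vitellogenins (6 of 6) stand at the ends.

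The samples within a pair were not alike. Of the 1732 genes higher in replicates 1 and 3, 1119 (64.6%) had the order 1, 3, 4, 2 from high to low, and of the 1407 genes higher in replicates 2 and 4, 855 (60.8%) had its mirror image 2, 4, 3, 1. Averaged over the first set, levels stood 0.91 above the wild type mean on the log2 scale in replicate 1 and 0.48 above it in replicate 3, against 0.89 below it in replicate 2 and 0.49 below it in replicate 4. Over the second set, replicates 1 and 3 stood 0.70 and 0.40 below the mean, against 0.64 and 0.46 above it in replicates 2 and 4. On both sets replicates 1 and 2 were the extremes and replicates 3 and 4 the inner samples. The median standard deviation over the 4 wild type samples was 0.68 on the log2 scale for the first set and 0.63 for the second, which follows from how the sets were chosen. For the same genes it was 0.23 in rescue and 0.24 in mutant for the first set, and 0.23 and 0.21 for the second. Over all genes it was 0.21 in wild type, against 0.13 in rescue and 0.13 in mutant.

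Collection dates were compared in the 8 rescue and mutant samples, which had no part in choosing the pairs. Days 2 and 6 were set against day 4, the days on which wild type replicates 1, 3 and 2 were collected, with genotype and day 1 as terms of the fit. No gene of 15535 passed an adjusted p of 0.01 in edgeR's quasi-likelihood test in either direction (0% called), with 300 genes at an unadjusted p under 0.05. DESeq2 called 1 gene higher on days 2 and 6 and none lower. The 1680 tested genes of the first set had a median log2 change of −0.04 on days 2 and 6 against day 4, and the 1378 of the second set one of 0.02. Across 15535 genes the wild type pair difference and this change had a correlation of −0.08, in which genes are not independent replicates. vit-2 had 8802 and 4865 CPM in rescue on days 2 and 6, against 5776 CPM on day 4, and 8238 and 6128 CPM in mutant on days 2 and 6, against 5412 CPM on day 4. No rescue or mutant sample was collected on day 8, the day of wild type replicate 4. Day 4 had 1 rescue and 1 mutant sample, and the fit covers only changes with day that both groups share. The part of collection day in the wild type pairs was not tested.

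**Figure D4:**
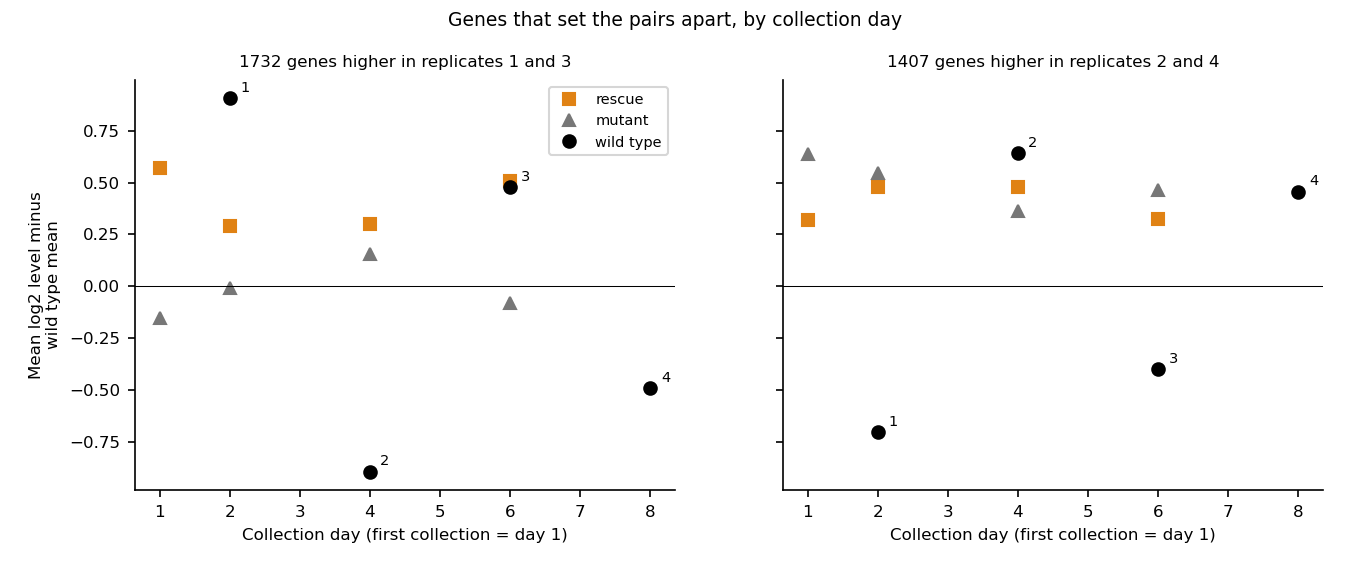
Mean log2 level, minus the wild type mean, of the 1732 genes higher in wild type replicates 1 and 3 (left) and of the 1407 genes higher in replicates 2 and 4 (right), by collection day, 1 point per sample. Wild type samples spread from −0.89 to 0.91 on the left, while rescue and mutant samples of days 2, 4 and 6 lie between −0.08 and 0.51.

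The 8 other samples did vary along the same genes. The deviation of each sample from its own group mean was correlated across 3139 genes with the wild type pair difference, with r = 0.50, −0.31, −0.45 and 0.39 in rescue replicates 1 to 4 and −0.41, 0.01, 0.54 and −0.19 in mutant replicates 1 to 4. By collection day, rescue and mutant were at 0.50 and −0.41 on day 1 and at −0.31 and 0.01 on day 2. They were at −0.45 and 0.54 on day 4 and at 0.39 and −0.19 on day 6. Each of these days had 1 sample per group, and the part of collection day in these values was not tested. Over all 15728 genes the values were lower in size except in mutant replicate 2, at 0.339, −0.213, −0.303 and 0.205 in rescue replicates 1 to 4 and −0.255, 0.0187, 0.357 and −0.137 in mutant replicates 1 to 4. These values are descriptions across genes, and deviations within a group sum to 0. The spread itself was smaller than in wild type, as the standard deviations above show.

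Rescue set against mutant asked whether genes that divided the wild type also differ between groups of other samples. In edgeR's quasi-likelihood test 439 genes (2.83% of 15535) rose in rescue and 117 (0.753%) fell, at an adjusted p of 0.01. Of the 1680 tested genes higher in wild type replicates 1 and 3, 261 (15.5%) rose in rescue and none fell (12 fell in DESeq2), with a median log2 fold change of 0.33, and 1408 (83.8%) had a fold change above 0. Of the 1378 tested genes higher in wild type replicates 2 and 4, 3 rose (0.218%) and 36 fell (2.61%), with a median of −0.15. Averaged over all 1407 genes of this second set, rescue samples stood 0.32 to 0.48 above the wild type mean on the log2 scale. Mutant samples stood 0.36 to 0.64 above it, whereas wild type replicates 1 and 3 stood 0.70 and 0.40 below it. With collection day as a replicate block, 135 genes rose and 83 fell, of which 64 rising and 3 falling genes belonged to the first set and 3 rising and 17 falling genes to the second. Leaving out single samples moved these counts too: the 261 became 130 without mutant replicate 1, 67 without mutant replicate 2, 86 without mutant replicate 4, 91 without rescue replicate 1 and 83 without rescue replicate 4. The 36 became 7 to 30 over the 8 samples left out, with 7 without rescue replicate 4. With all 12 samples in 1 fit, so that the wild type spread entered, 48 genes rose and 12 fell, of which 5 rising genes were of the first set. With library size alone as scaling 647 rose and 72 fell, and in DESeq2 832 rose and 421 fell.

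**Figure D5:**
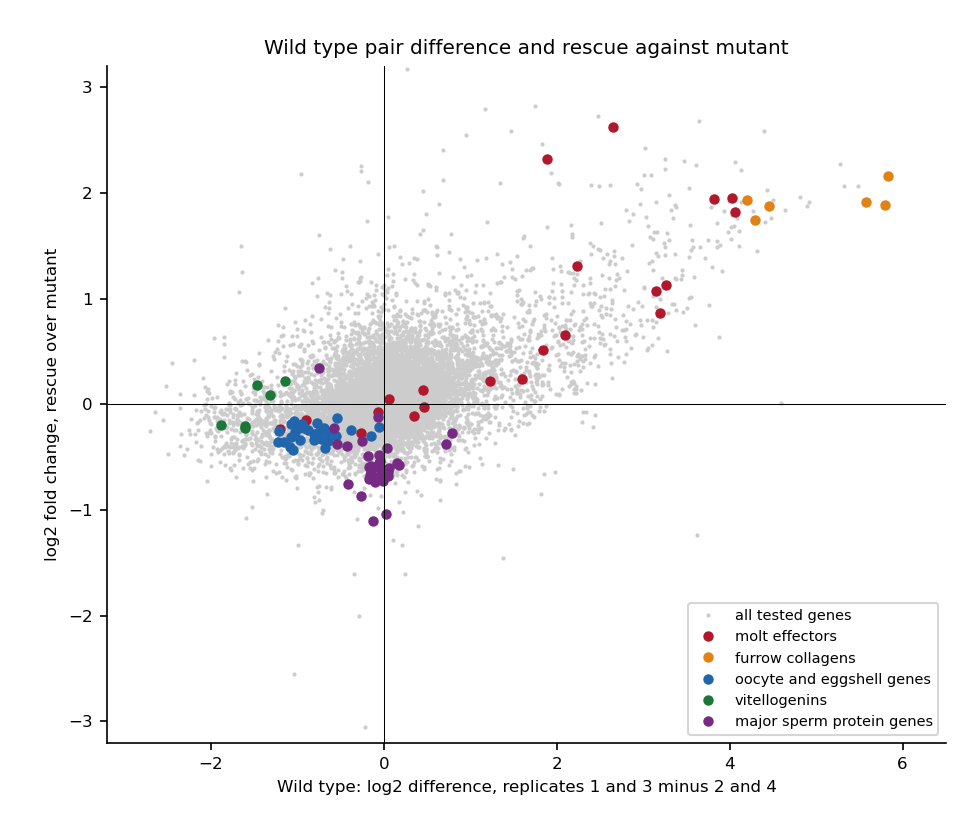
For each of 15535 genes, the log2 difference between the wild type pairs (horizontal) and the log2 fold change of rescue over mutant (vertical), 2 comparisons that share no sample. Furrow collagens and most molt effectors lie in the upper right, and oocyte and eggshell genes in the lower left. Most major sperm protein genes lie below 0 with little wild type difference, and 2 of 35 were higher in replicates 1 and 3. 6 genes, raga-1 among them, lie outside the axes.

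Across all 15535 genes the wild type pair difference and the fold change of rescue over mutant had a correlation of 0.51, which describes genes and not replicates. Of 21 molt effectors 9 rose in rescue and none fell, and 3 rose with the replicate block or without mutant replicate 2. fbn-1 had 45.3, 29.4, 11.9 and 29.8 CPM in rescue, against 4.67, 5.19, 4.19 and 4.604 CPM in mutant, and rose by 2.63 on the log2 scale (SE 0.33, edgeR adjusted p = 0.0016, with the block 0.0039). nas-37 had 69.1, 57.8, 49.1 and 65.3 CPM in rescue, against 22.3, 26.5, 30.1 and 18.5 CPM in mutant, and rose by 1.31 (SE 0.14, edgeR adjusted p = 0.00072, with the block 0.00755). mlt-11 had 294, 191, 119 and 240 CPM in rescue, against 53.0, 63.1, 82.5 and 39.9 CPM in mutant. Its fold change of 1.82 had an edgeR adjusted p of 0.00297, with the block 0.0205, and it lost its call on leaving out either of 2 samples. In each of these 3 genes every rescue sample lay above every mutant sample.

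Of the 6 furrow collagens 4 rose in rescue, 1 with the replicate block and 1 without mutant replicate 1. dpy-9 had 68.8, 40.2, 32.2 and 54.03 CPM in rescue, against 10.6, 11.9, 14.3 and 6.81 CPM in mutant, a log2 fold change of 2.16 (SE 0.25, edgeR adjusted p = 0.00111, with the block 0.00798). Wild type replicate 1, at 68.6 CPM, was thus at the level of the highest rescue sample, replicate 3 at 12.1 CPM was within the mutant range, and replicates 2 and 4 were below all 8 other samples. Collagens as a family had 10 members that rose and 3 that fell in rescue, against 2 and 16 with the block. Of 8 collagens of the adult cuticle 1, bli-1, rose (log2 fold change 1.449, edgeR adjusted p = 0.00502, with the block 0.0253) and none fell. This call of bli-1 was lost on leaving out any of 5 samples. bli-2 had a fold change of 0.94 (edgeR adjusted p = 0.0262) and col-19 one of −0.50 (edgeR adjusted p = 0.187), and col-63 had 1188, 710, 769 and 906 CPM in rescue, against 1165, 998, 970 and 868 CPM in mutant (edgeR adjusted p = 0.529).

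Yolk and oocyte genes did not pass edgeR's test between rescue and mutant. None of 6 vitellogenins and none of 31 oocyte and eggshell genes was called by edgeR, and their medians were −0.05 and −0.26 on the log2 scale. Of the oocyte and eggshell genes 20 were lower in rescue at an unadjusted p under 0.05 and DESeq2 called 7 of them, while no vitellogenin reached either. vit-2 had 6302, 8802, 5776 and 4865 CPM in rescue, against 10340, 8238, 5412 and 6128 CPM in mutant. oma-2 had 61.5, 96.6, 87.1 and 67.2 CPM in rescue, against 120, 97.1, 85.3 and 97.7 CPM in mutant. For both genes the groups overlapped, and all 8 samples lay above wild type replicates 1 and 3. Major sperm protein genes were mostly level between the wild type pairs, with 2 of 35 standing apart. In rescue 5 of the 35 fell, or 16 with the block, and the median was −0.60. DESeq2 called 27 of them lower, and in edgeR's test 30 were lower at an unadjusted p under 0.05. gsp-3 fell by 0.42 on the log2 scale in rescue (SE 0.05, edgeR adjusted p = 0.00167, with the block 0.00938), with 74.7, 75.8, 79.4 and 79.0 CPM in rescue, against 108, 102, 107 and 95.7 CPM in mutant.

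Some other lists also showed rescue calls in the direction of replicates 1 and 3. Not all did: of 58 UDP-glucuronosyltransferases tested here 7 rose in rescue and none fell. In wild type, 7 of 60 were higher in replicates 1 and 3 and 10 in replicates 2 and 4. Of 68 abu and pqn genes 1 rose in rescue and 13 fell, against 0 and 10 with the replicate block. Of 67 hedgehog-related and patched-related genes tested here 12 rose and 3 fell, against none rising and 1 falling with the replicate block, and 2 rose without mutant replicate 2. wrt-10 had 64.5, 39.1, 25.3 and 55.9 CPM in rescue, against 7.80, 9.33, 13.6 and 7.75 CPM in mutant, a log2 fold change of 2.27 (edgeR adjusted p = 0.00148, with the block 0.0118). In wild type wrt-10 had 42.3 and 9.39 CPM in replicates 1 and 3, against 1.16 and 2.098 CPM in replicates 2 and 4. spp-13, a saposin-like gene, rose by 1.08 on the log2 scale (SE 0.12, edgeR adjusted p = 0.00072, with the block 0.00608) and stood apart in wild type at 44.1 and 24.9 CPM in replicates 1 and 3, against 3.70 and 6.18 CPM in replicates 2 and 4. Of 47 histone genes 7 rose, or 3 with the block or without rescue replicate 1. acs-1 rose by 0.57 (edgeR adjusted p = 0.00346, with the block 0.00809) and lost its call on leaving out any of 3 samples.

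Among the genes with the smallest p-values in rescue against mutant were some with little or no difference between the wild type pairs. aex-5, a prohormone convertase, had 48.9, 44.3, 53.0 and 49.1 CPM in rescue, against 21.2, 22.2, 23.4 and 21.1 CPM in mutant, a log2 fold change of 1.15 (SE 0.06, edgeR adjusted p = 1.01e-05), and 20.5 and 18.3 CPM in wild type replicates 1 and 3, against 21.7 and 21.3 CPM in replicates 2 and 4. irg-5, a gene of the response to infection, had 183 to 268 CPM in rescue, against 38.3 to 43.8 CPM in mutant (log2 fold change 2.40, edgeR adjusted p = 2.86e-06). In wild type it stood apart, with 19.9 and 19.6 CPM in replicates 1 and 3, against 18.6 and 8.01 CPM in replicates 2 and 4, and only replicate 4 was far from the rest. C28A5.2 was at 0 to 0.067 CPM in rescue, against 23.8 to 26.2 CPM in mutant, and at 33.9 and 35.6 CPM in wild type replicates 1 and 3, against 42.9 and 34.4 CPM in replicates 2 and 4.

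Among the genes with the largest differences, 3 had values that go with single samples rather than with the pairs. C24H11.1 had 0 counts in replicates 1 and 3, against 17.6 and 8.01 CPM in replicates 2 and 4, and C24H11.2 had 23.3 and 20.3 CPM in replicates 1 and 3, against 0 and 10.3 CPM in replicates 2 and 4. The genes lie 1000 bases apart on opposite strands of chromosome III (11787676 to 11789496 and 11790497 to 11792345, build WBcel235), and one was at 0 where the other was not in 10 of the 12 samples, while their sum was 13.7 to 23.3 CPM in every sample. Their separate levels are therefore uncertain. C40H1.7 had 5.80 and 0.313 CPM in replicates 1 and 3, against 6.42 and 10.5 CPM in replicates 2 and 4, so its difference rests on replicate 3. By chromosome, 15.8% of tested genes on X were higher in replicates 1 and 3 and 12.5% in replicates 2 and 4. On chromosome III, which had the lowest share higher in replicates 1 and 3 of the nuclear chromosomes, these were 7.48% and 5.67%.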

How the data were processed

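Poly(A) RNA from whole mid-L4 larvae was sequenced as paired-end, stranded libraries. The authors aligned reads to build WBcel235 for quality control, estimated abundances with Salmon, and summed them to genes. The deposited table holds estimated counts (expected counts) per gene and sample; the submitters' processing notes also list CASAVA and DESeq2, without versions. A second, normalized table was not used. Expected counts were rounded. Of 21882 genes, 15728 passed edgeR's filterByExpr over 12 samples. Libraries were scaled by TMM over the 12 samples (factors 0.951 to 1.08), and log2 CPM used a prior count of 2. The pair difference is the mean of wild type replicates 1 and 3 minus that of 2 and 4. Because the pairs were found in these values, it has no test. Printed CPM have no prior count.

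In the 8 rescue and mutant samples, 15535 genes were tested with edgeR's quasi-likelihood test (edgeR 4.0.16, R 4.3.3; DESeq2 1.42.0 as alternative) with Benjamini-Hochberg adjusted p at 0.01. Rescue and mutant samples of the same number share a collection date by their labels, so the fit with the replicate block stands beside the main one. Deviations of same-numbered samples had correlations of −0.02, 0.15, −0.14 and 0.01. Samples were independent egg lays. The code was tested on simulated data.

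The pairs, the 45 gene lists and the rule for named genes were chosen with earlier results of these data known. Named were the 10 largest differences each way above 5 CPM, the 3 largest of each list, set stage markers, and the 3 smallest p-values each way in each test; others are marked. Coordinates come from Ensembl release 115 (WBcel235), in which 21714 genes were found. A planned description of promoter motifs was not run, as no genome sequence was used here. Alternatives were other scalings, filters, prior counts, folds, tools and thresholds, a replicate block, and leaving out each sample.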

Additional observations from a re-analysis of the deposited data

Results flagged for a closer look

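A single sample stood far from the other 3 of its group, by the gap to its nearest neighbour as a share of the group's range, in 27 of 483 groups of 4 values examined. With independent values, chance alone passes the limit used in about 1 in 20 groups. Many genes examined here were named for their wild type values, and lists share members. The count therefore cannot be set against that share. No cause was tested.

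Within wild type, replicate 1 was the highest for lpr-4 (share 0.841), M03B6.3 (0.847), fbn-1 (0.876) and M04C3.5 (0.924), and the lowest for msp-64 (0.838). Replicate 2 was the highest for egl-17 (0.908), and replicate 4 the lowest for irg-5 (0.895). fbn-1 had 26.7 CPM in replicate 1, against 1.71 to 4.81 CPM in the others.

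Within mutant, replicate 1 was the highest for the summed major sperm protein genes (0.848), msp-71 (0.849) and C40H1.7 (0.862), and the lowest for the summed glutathione S-transferases (0.888) and nlp-24 (0.837). Replicate 2 was the highest for ugt-13 (0.887), and replicate 4 the highest for ssp-19 (0.927). The summed major sperm protein level was 5480 CPM in mutant replicate 1, against 4040 to 4259 CPM in the others.

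Within rescue, replicate 1 was the highest for msp-3 (0.915), msp-71 (0.856), spp-2 (0.881) and the summed adult cuticle collagens (0.83, at 6301 CPM against 4356 to 4687 CPM). Replicate 2 was the highest for acs-1 (0.869) and the summed P granule and small RNA genes (0.836) and the lowest for egl-17 (0.943) and ins-27 (0.837). Replicate 3 was the highest for fipr-6 (0.83) and C24H11.1 (1, at 16.47 CPM against 0 in the others) and the lowest for C24H11.2 (0.891). Replicate 4 was the lowest for fat-5 (0.925) and nspb-6 (0.831).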

How the results depend on the processing

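The counts of genes that stood apart between the wild type pairs stayed within 1.5 times of 1732 and 1407 under 3 other scalings, TMM over the wild type alone, 2 other filters and a prior count of 0.5. At a minimum of 2-fold they were 912 and 671. Leaving out each wild type sample gave 1616 to 2282 and 1242 to 1968, where fewer samples make it easier for pairs not to overlap. None of 116 named genes changed the sign of a difference that stood apart. For collection day, edgeR called 0 genes in each direction under every fit, with 0 to 0 on leaving out each sample and 0 with the replicate block (day as 4 levels), and DESeq2 called 1 higher and 0 lower. For rescue against mutant, 439 genes higher and 117 lower became 1177 and 563 at a threshold of 0.05, 832 and 421 in DESeq2, 135 and 83 with the replicate block, and 48 and 12 with all 12 samples in 1 fit. Library size alone gave 647 and 72, and leaving out each sample gave 115 to 419 and 29 to 103, with 115 without mutant replicate 2 and 29 without rescue replicate 4. The cause of these moves was not tested. No fold change of a named gene past an adjusted p of 0.05 reversed in these fits. The promoter motifs were not run. Depth limits the lowest levels: 3 counts were 0.217 CPM in wild type replicate 1.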

Other observations

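Families defined by the letters of the gene symbol, with at least 8 tested members (171 families), were scanned after the values were seen and are given without a test. Of 16 fipr genes, named for their likeness to fungus-induced peptides, 15 were higher in wild type replicates 2 and 4 and none in replicates 1 and 3 (median log2 difference −1.94). fipr-6 had 3.26 and 3.95 CPM in replicates 1 and 3, against 18.1 and 16.8 CPM in replicates 2 and 4. Of 8 mltn genes, relatives of mlt-10, 6 were higher in replicates 1 and 3 (median 2.42), of 8 bus genes, which shape the surface that pathogens stick to, 7 were (median 1.503), and of 9 cdh cadherin genes 8 were (median 1.21). None of these 3 families had a member higher in replicates 2 and 4. Of 9 puf genes, RNA-binding regulators of the germline, 6 were higher in replicates 2 and 4 and none in replicates 1 and 3 (median −0.75).

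Of these families, the rescue set against the mutant had 2 of 8 mltn genes, 2 of 8 bus genes and 3 of 9 cdh genes that rose and none that fell in edgeR's quasi-likelihood test, and no fipr or puf gene that passed it. Of 11 larval vulva and uterus genes 1 stood apart each way (9.09%, against 11.0% and 8.95% of all genes), and their median log2 difference between the wild type pairs was 0.39. lin-3, the EGF-like ligand of vulval induction, had 12.5 and 17.5 CPM in replicates 1 and 3, against 28.3 and 23.2 CPM in replicates 2 and 4, and cdh-3, a cadherin, had 9.21 and 7.79 CPM in replicates 1 and 3, against 4.81 and 5.17 CPM in replicates 2 and 4. egl-17, a growth factor gene of vulval cells, had 2.39 and 2.35 CPM in replicates 1 and 3, against 2.99 and 2.33 CPM in replicates 2 and 4.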
